A study of Homo sapiens with 4 samples.

Results

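The genes described here encode proteins of the centromere and of the kinetochore. They are 41 genes chosen by name, each found in the count files through its NCBI Gene identifier and its current symbol. All 41 passed the filter on low counts, a CPM (the reads of a gene scaled to the total of its library) above 1 in at least 2 libraries, among 12559 retained genes of 23459 listed. Each of the 41 was above that CPM in all 4 libraries, so none was retained only through the time at which it was higher. The libraries come from hTERT RPE-1, human cells of the pigment epithelium of the retina that telomerase has made immortal, wild type by their label. The cells were kept for 48 h in medium with 0.1% serum, which arrests most of them in G0/G1, and were then exposed to 200 μM merbarone, a catalytic inhibitor of TOP2, for 4 h (n = 2) or 8 h (n = 2). All groups share the cell line, the serum starvation and the drug, and they differ in the length of exposure, which also lengthens the time in low serum, so that exposure and starvation cannot be told apart. Untreated cells were not analysed here, so no value is relative to cells without merbarone.

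The centromere is the stretch of chromosome that carries nucleosomes with CENP-A, a variant of histone H3, and the kinetochore is the protein assembly built on it that holds spindle microtubules in mitosis. An inner layer, the constitutive centromere-associated network (CCAN), binds CENP-A chromatin, and an outer layer, the KMN network of the KNL1, MIS12 and NDC80 complexes, binds microtubules. Most of these genes are transcribed mainly in late S phase, G2 and mitosis, and their transcripts are scarce in resting cells. Many of their promoters carry a cell cycle genes homology region (CHR), which is bound by the MuvB core of the DREAM complex in resting cells.

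Reads counted on genes ranged from 8064450 to 10324697 per library, and a member had between 12 and 3387 reads in a library. Values below are TMM-normalized CPM, and a log2 fold change (log2FC) is 8 h against 4 h. Of 15 genes typical of retinal pigment epithelium, 7 were retained, among them KRT8, KRT18, OTX2 and MITF. The visual cycle and pigment genes were split. RPE65, RLBP1, LRAT, TYR, TYRP1 and DCT had at most 7 reads in any library. RDH5, with 75 and 71 reads at 4 h against 53 and 43 at 8 h, was retained. So was PMEL, with 12 and 7 reads at 4 h against 8 and 12 at 8 h. The list summed to 797 and 845 CPM at 4 h against 717 and 760 CPM at 8 h, and KRT18, which fell, was the only one of the 7 to pass the test described below. Of the marker lists of other cell types, 1 of 5 photoreceptor genes, 0 of 3 endothelial genes, 1 of 3 immune genes (CD68) and 3 of 3 fibroblast-like genes (VIM, COL1A1, FN1) were retained. The summed level of the photoreceptor list was 0.749 and 1.51 CPM at 4 h against 1.28 and 0.778 at 8 h, and that of the endothelial list 0.562 and 0.473 against 0.747 and 0.778. The immune list, which rests on CD68, summed to 54.7 and 56.7 CPM at 4 h against 70.5 and 75.7 at 8 h, and the fibroblast-like list to 22026 and 21723 against 27351 and 28670. CD68, VIM and FN1 rose and COL1A1 fell, while the retained photoreceptor gene did not pass. The part of these markers in the results below was not tested.

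Promoter windows from the RefSeq table of GRCh38.p14 were matched to 34 of the 41 members. The windows of 6 members are shown. They include the 4 subunits of the NDC80 complex, which fell furthest as a group, and PMF1, the member that rose. SKA3 is not an extreme, and was added because its CHR lies at the same place as in NDC80. The choice does not show how a CHR goes with the change. Among the windows not shown, CENPC (log2FC −0.01) and CENPN (−0.14) hold a CHR, and OIP5 (−1.81) holds none of the letters searched. Each line runs 5′ to 3′ on the strand of the gene, from 100 bases before the RefSeq start to 30 bases after it. Capitals mark a CHR (TTTGAA, or TTCAAA on the other strand), a CCAAT box (CCAAT or ATTGG) or an E2F site (TTTCCCGC, TTTCGCGC, TTTGCCGC or TTTGGCGC, on either strand), and the last capitals of PMF1 begin a CCAAT box that continues past the window.
NDC80, chr18:2571457-2571586, plus strand: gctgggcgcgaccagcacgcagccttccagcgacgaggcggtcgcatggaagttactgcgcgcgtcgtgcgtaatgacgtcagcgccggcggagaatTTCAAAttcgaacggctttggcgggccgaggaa
NUF2, chr1:163321854-163321983, plus strand: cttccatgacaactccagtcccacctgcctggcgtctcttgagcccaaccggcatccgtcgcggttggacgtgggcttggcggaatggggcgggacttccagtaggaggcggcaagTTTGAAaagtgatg
SPC24, chr19:11155753-11155882, minus strand: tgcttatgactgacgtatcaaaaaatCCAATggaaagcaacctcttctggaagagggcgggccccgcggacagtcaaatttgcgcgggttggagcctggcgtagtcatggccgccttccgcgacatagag
SPC25, chr2:168890401-168890530, minus strand: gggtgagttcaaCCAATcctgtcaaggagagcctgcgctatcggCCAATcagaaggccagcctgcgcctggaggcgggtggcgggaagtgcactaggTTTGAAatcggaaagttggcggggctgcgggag
SKA3, chr13:21176523-21176652, minus strand: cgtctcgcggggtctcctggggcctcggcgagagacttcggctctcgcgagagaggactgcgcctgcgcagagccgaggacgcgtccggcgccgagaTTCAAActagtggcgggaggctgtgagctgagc
PMF1, chr1:156212907-156213036, plus strand: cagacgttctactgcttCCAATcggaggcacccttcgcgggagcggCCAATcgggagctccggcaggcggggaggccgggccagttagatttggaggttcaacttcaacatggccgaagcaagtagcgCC
The CHR begins 3 bases before the start in NDC80, SPC25 and SKA3, and at base 17 after it in NUF2. SPC24 and PMF1 hold CCAAT boxes and no CHR of these letters in the window.

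The comparison of 8 h with 4 h asks how the transcripts of the kinetochore move as exposure to merbarone goes on. Most of them were lower at 8 h. At a Benjamini-Hochberg adjusted p below 0.05 in edgeR's quasi-likelihood test, 32 of the 41 members fell and 1 rose, while 8 did not pass. Among all retained genes, 18.8% were lower and 19.9% higher by the same rule. With an absolute log2FC above 1 as well, the thresholds of the study, 15 members were lower and 0 higher, against 3.88% and 1.45% of all retained genes (5.33% in either direction). The split over all genes, 487 lower and 182 higher, became 641 and 125 with library size as the only scaling and 339 and 261 after a trend with expression level was removed, and the members were then 18 and 12 lower. The median log2FC of the members was −0.80, beside −0.00 for all retained genes. In 38 members both 8 h libraries lay below both 4 h libraries, which holds for 34.9% of all genes, and in 2 members, PMF1 and CENPM, both lay above, which holds for 34.8%. The members' CPM summed to 1826 and 1738 at 4 h against 1123 and 1023 at 8 h, a ratio of 0.602 between the times. In each member whose values are given below, both 8 h libraries lay below both 4 h libraries unless another order is stated. In RNA from whole cultures, fewer cells in division and less RNA of these genes per cell cannot be told apart. Of 9 genes that mark dividing cells (MKI67, TOP2A, CCNA2, CCNB1, CDK1, PCNA, MCM2, MCM5 and E2F1), 8 fell and 1, E2F1, did not pass, and their summed level went from 1329 and 1290 CPM to 728 and 689, which moves with the members. The part of this in the result was not tested.

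**Figure D1:**
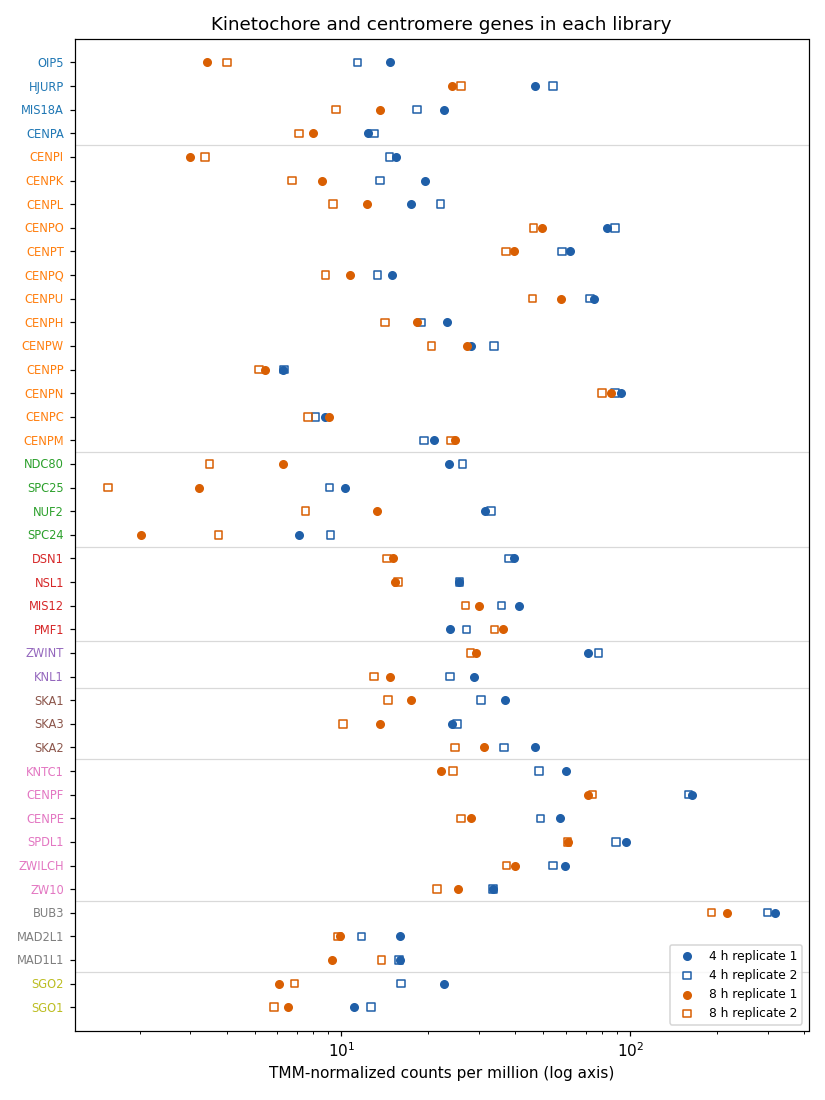
TMM-normalized CPM (horizontal log axis) of the 41 members, grouped by role and coloured by role in the gene names, with filled circles for replicate 1 and open squares for replicate 2 at 4 h (blue) and 8 h (orange). The orange symbols lie left of both blue symbols in 38 members, and right of both in PMF1 and CENPM.

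The members just inside the fold threshold were HJURP (log2FC −1.01), SKA3 (−1.04) and SKA1 (−1.07), and those just outside it were CENPE (−0.97), SGO1 (−0.94) and KNL1 (−0.92). The count of 15 moved with the libraries used, from 12 without replicate 2 of 8 h to 19 without replicate 1 of 8 h. Tested directly against a log2FC of 1 with glmTreat, 5 members were past it, namely NDC80, CENPI, SPC25, OIP5 and ZWINT. The 8 h replicates were not alike for these genes. In 32 of the 41 members replicate 2 of 8 h was below replicate 1, against 50.5% of all retained genes, with a median log2 ratio of −0.12 beside −0.00 for all genes, and at 4 h the same held for 26 members, against 49.996% of all genes, with a median of −0.08 beside 0.00.

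**Figure D2:**
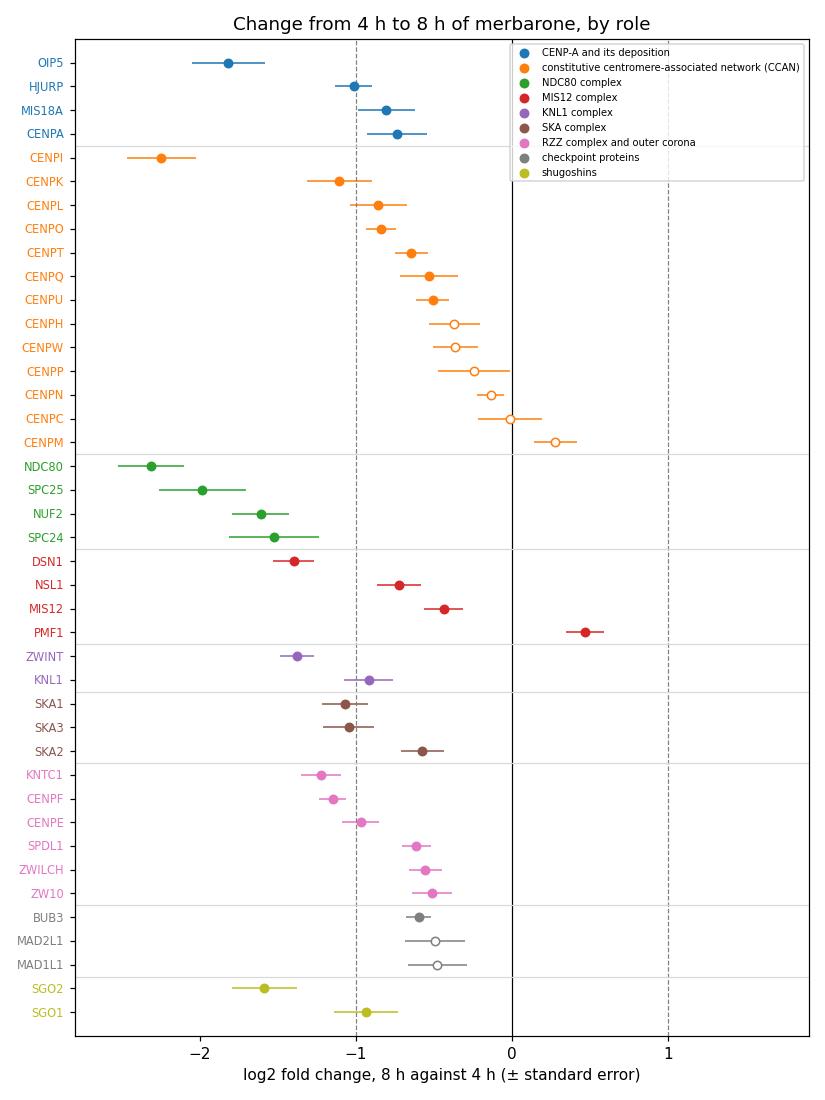
Log2 fold change of each member, 8 h against 4 h (horizontal axis, bars are standard errors of the edgeR fit), by role. Filled points have an adjusted p below 0.05 and open points do not, dashed lines mark a log2 fold change of 1 in either direction, and the points run from −2.31 for NDC80 to 0.47 for PMF1.

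The NDC80 complex is the rod that joins the kinetochore to the microtubule, with the NDC80 and NUF2 chains at the microtubule end and SPC24 and SPC25 at the inner end. All 4 of its genes fell past the fold threshold, with a median log2FC of −1.79, the lowest median of the 9 role groups. NDC80 (chromosome 18, 2571556 to 2616634, plus strand, hg19) stood at 23.5 and 26.2 CPM at 4 h against 6.29 and 3.50 CPM at 8 h. The 8 h libraries were far below those of 4 h and differed between themselves (log2FC −2.31, standard error 0.21, edgeR adjusted p = 9.59e-08), and NDC80 held the lowest log2FC of the members. Left out in turn, the 8 h replicates gave −2.82 without replicate 1 and −1.98 without replicate 2. SPC25 (chromosome 2, 169690642 to 169769881, minus strand) stood at 10.3 and 9.08 CPM at 4 h against 3.20 and 1.56 CPM at 8 h, from 110 and 96 reads at 4 h against 30 and 12 at 8 h, where 12 reads is the lowest count of any member (log2FC −1.98, standard error 0.28, edgeR adjusted p = 1.93e-05). SPC24 (chromosome 19, 11242196 to 11266483, minus strand) stood at 7.11 and 9.17 CPM at 4 h against 2.03 and 3.76 CPM at 8 h, with its 8 h replicates in the opposite order (log2FC −1.52, standard error 0.29, edgeR adjusted p = 0.000343). These last 2 genes had the largest standard errors of the 41. Without replicate 1 of 8 h the log2FC was −2.63 for SPC25 and −1.11 for SPC24, and without replicate 2 of 8 h it was −1.59 and −1.999. SPC25 overlaps NOSTRIN and G6PC2 on the other strand. NUF2 stood at 31.5 and 32.9 CPM at 4 h against 13.2 and 7.52 CPM at 8 h and had a log2FC of −1.61 (adjusted p = 1.38e-06).

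The 4 subunits form a single assembly, but their transcripts were not at a single level. Per kilobase of the canonical transcript, NUF2 stood at 16.0 and 16.8 at 4 h against 6.74 and 3.83 at 8 h CPM per kb, NDC80 at 11.1 and 12.3 at 4 h against 2.96 and 1.65 at 8 h, SPC25 at 7.67 and 6.76 at 4 h against 2.38 and 1.16 at 8 h and SPC24 at 3.11 and 4.01 at 4 h against 0.885 and 1.64 at 8 h. NUF2 was the highest of the 4 in every library, and the order was kept in all libraries except replicate 2 of 8 h, where SPC24 and SPC25 changed places. The 2 chains of the microtubule end can be set against each other within a library, where scaling between libraries plays no part. The CPM of NDC80 over that of NUF2 was 0.747 and 0.796 at 4 h against 0.476 and 0.466 at 8 h, lower in both 8 h libraries, and this pair was chosen after its values were seen. That of NDC80 over SPC24 was 3.30 and 2.86 at 4 h against 3.11 and 0.931 at 8 h, and there the times overlap.

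The MIS12 complex is the platform that connects the NDC80 and KNL1 complexes to the inner kinetochore. Of its 4 subunits, 3 fell and 1 rose. DSN1 (chromosome 20, 35380194 to 35402221, minus strand) stood at 39.7 and 38.0 CPM at 4 h against 15.0 and 14.4 CPM at 8 h, with close replicates at both times (log2FC −1.40, standard error 0.13, edgeR adjusted p = 1.44e-07). NSL1 had a log2FC of −0.72 (adjusted p = 0.000523). MIS12 (chromosome 17, 5389605 to 5394134, plus strand) stood at 41.2 and 35.7 CPM at 4 h against 29.9 and 26.8 CPM at 8 h (log2FC −0.44, standard error 0.12, edgeR adjusted p = 0.00833), and its change no longer passed without replicate 1 of 4 h, at −0.34 (adjusted p = 0.131). PMF1 (chromosome 1, 156182784 to 156209833, plus strand) was the member that rose, and stood at 23.7 and 27.0 CPM at 4 h against 36.3 and 33.8 CPM at 8 h (log2FC 0.47, standard error 0.12, edgeR adjusted p = 0.00569). Its rise also did not pass without replicate 1 of 4 h, at 0.37 (adjusted p = 0.104), and PMF1 shares its start and strand with the listed readthrough gene PMF1-BGLAP, so its reads are uncertain. Within libraries, the CPM of DSN1 over that of PMF1 was 1.68 and 1.41 at 4 h against 0.415 and 0.425 at 8 h.

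KNL1 and ZWINT form the KNL1 complex, the scaffold on which checkpoint proteins gather. ZWINT (chromosome 10, 58116988 to 58121034, minus strand) stood at 71.1 and 77.5 CPM at 4 h against 29.2 and 28.0 CPM at 8 h (log2FC −1.38, standard error 0.11, edgeR adjusted p = 1.12e-08), and KNL1 (chromosome 15, 40886218 to 40956540, plus strand) at 28.7 and 23.7 CPM at 4 h against 14.7 and 13.0 CPM at 8 h (log2FC −0.92, standard error 0.16, edgeR adjusted p = 0.000121). Both fell, ZWINT past the fold threshold. The SKA complex helps the kinetochore to follow shortening microtubules, and its 3 genes fell. SKA1 (chromosome 18, 47901410 to 47920538, plus strand) stood at 36.9 and 30.4 CPM at 4 h against 17.4 and 14.5 CPM at 8 h (log2FC −1.07, standard error 0.15, edgeR adjusted p = 1.29e-05), and SKA3 had a log2FC of −1.04 (adjusted p = 5.66e-05). SKA2 (chromosome 17, 57187218 to 57232621, minus strand) stood at 46.9 and 36.5 CPM at 4 h against 31.0 and 24.8 CPM at 8 h (log2FC −0.57, standard error 0.14, edgeR adjusted p = 0.0028), and without replicate 1 of 4 h it did not pass, at −0.39 (adjusted p = 0.1). The levels of SKA1 over SKA2 were 0.786 and 0.834 at 4 h against 0.560 and 0.586 at 8 h.

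CENP-A is placed at centromeres after mitosis by its chaperone HJURP, which is guided by the MIS18 complex of MIS18A and OIP5. All 4 genes of this group fell, 2 of them past the fold threshold. OIP5 (chromosome 15, 41601471 to 41624789, minus strand) stood at 14.7 and 11.3 CPM at 4 h against 3.41 and 4.02 CPM at 8 h (log2FC −1.81, standard error 0.23, edgeR adjusted p = 6.33e-06), the largest fall of the group, and it overlaps NUSAP1 and the antisense gene OIP5-AS1 on the other strand. HJURP stood at 46.8 and 54.0 CPM at 4 h against 24.1 and 25.9 CPM at 8 h and had a log2FC of −1.01 (adjusted p = 2.3e-06). CENPA (chromosome 2, 26987157 to 27023935, plus strand) stood at 12.4 and 13.0 CPM at 4 h against 8.00 and 7.13 CPM at 8 h (log2FC −0.74, standard error 0.19, edgeR adjusted p = 0.00491), the smallest fall of the group. The listed span of CENPA overlaps SLC35F6 on the same strand, so its reads are less certain. MIS18A had a log2FC of −0.80 (adjusted p = 0.00173), which became −0.65 (adjusted p = 0.0504) without replicate 1 of 4 h.

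The CCAN stays at centromeres through the whole cell cycle. Of its 13 genes, 7 fell, 2 of them past the fold threshold, and 6 did not pass, with a median log2FC of −0.51. CENPI (chromosome X, 100353177 to 100421115, plus strand) stood at 15.4 and 14.7 CPM at 4 h against 2.99 and 3.37 CPM at 8 h (log2FC −2.25, standard error 0.22, edgeR adjusted p = 2.33e-07), and its 8 h libraries were close to each other and far below those of 4 h. CENPK was the other gene past the fold threshold, at −1.10 (adjusted p = 0.000366). CENPC (chromosome 4, 68334480 to 68411221, minus strand), whose protein links CENP-A nucleosomes to the MIS12 complex, stood at 8.80 and 8.13 CPM at 4 h against 9.07 and 7.65 CPM at 8 h (log2FC −0.01, standard error 0.20, edgeR adjusted p = 0.971), with the times overlapping. CENPM (chromosome 22, 42334741 to 42343156, minus strand) stood at 20.9 and 19.3 CPM at 4 h against 24.8 and 23.98 CPM at 8 h, with both 8 h libraries above both 4 h libraries, and did not pass (log2FC 0.28, standard error 0.14, edgeR adjusted p = 0.115).

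The CCAN is made of smaller assemblies, and genes of the same assembly had unlike log2FC values, a difference that was not tested. In the CENP-HIKM group, the log2FC was −2.25 for CENPI, −1.10 for CENPK, −0.37 (adjusted p = 0.0861) for CENPH and 0.28 for CENPM. The CPM of CENPI over that of CENPM was 0.740 and 0.760 at 4 h against 0.121 and 0.141 at 8 h. Replicates of a time were close in this ratio, and the times were far apart. The pair sets the lowest over the highest log2FC of the group, so the direction of the difference was fixed by the choice. In the CENP-LN pair, which reads the CENP-A nucleosome, the log2FC was −0.86 (adjusted p = 0.00102) for CENPL and −0.14 (adjusted p = 0.236) for CENPN. CENPN overlaps CMC2 on the other strand. In the CENP-OPQUR group, it was −0.84 (adjusted p = 1.5e-06) for CENPO, −0.53 (adjusted p = 0.0286) for CENPQ, −0.51 (adjusted p = 0.000942) for CENPU and −0.24 (adjusted p = 0.429) for CENPP, a gene that spans several others on the other strand. ITGB3BP, which encodes CENP-R and is not a member, had a log2FC of −0.43 (adjusted p = 0.195). In the histone-fold group CENP-TWSX, it was −0.64 (adjusted p = 7.77e-05) for CENPT and −0.36 (adjusted p = 0.0577) for CENPW, and for the non-members CENPS and CENPX it was −0.37 (adjusted p = 0.41) and −0.23 (adjusted p = 0.112). CENPQ no longer passed without replicate 1 or 2 of 4 h (adjusted p = 0.187 and 0.0687) or replicate 2 of 8 h (0.127), whereas CENPH passed without replicate 1 of 8 h (adjusted p = 0.0131), as did CENPW (0.00224). Without replicate 2 of 8 h, CENPH was at −0.20 (adjusted p = 0.386) and CENPW at −0.18 (adjusted p = 0.366).

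The RZZ complex, made of KNTC1 (Rod), ZW10 and ZWILCH, and its dynein adaptor SPDL1 (Spindly) form the outer corona with the kinesin CENP-E and the large coiled-coil protein CENP-F. All 6 genes fell, 2 past the fold threshold. KNTC1 (chromosome 12, 123011793 to 123110943, plus strand) stood at 59.9 and 48.2 CPM at 4 h against 22.1 and 24.4 CPM at 8 h (log2FC −1.22, standard error 0.13, edgeR adjusted p = 4.71e-07). CENPF (chromosome 1, 214776528 to 214837917, plus strand) stood at 164 and 159 CPM at 4 h against 71.6 and 74.0 CPM at 8 h (log2FC −1.15, standard error 0.08, edgeR adjusted p = 5.92e-09), and with BUB3 it had the smallest standard error of the members. CENPE, a motor that moves chromosomes to the spindle equator, had a log2FC of −0.97 (adjusted p = 3.52e-06). ZW10 (chromosome 11, 113603909 to 113644457, minus strand) stood at 33.4 and 33.5 CPM at 4 h against 25.3 and 21.4 CPM at 8 h (log2FC −0.51, standard error 0.13, edgeR adjusted p = 0.0036), the smallest fall of the group, next to ZWILCH at −0.55 (adjusted p = 0.000402) and SPDL1 at −0.61 (adjusted p = 3.4e-05). Within the RZZ complex, the CPM of KNTC1 over that of ZW10 was 1.79 and 1.44 at 4 h against 0.873 and 1.14 at 8 h.

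Of the checkpoint genes, BUB3, which brings BUB1 to the kinetochore and also binds RNA-processing factors, was the most read member. BUB3 (chromosome 10, 124913918 to 124929983, plus strand) stood at 317 and 298 CPM at 4 h against 216 and 191 CPM at 8 h (log2FC −0.60, standard error 0.08, edgeR adjusted p = 1.1e-05). MAD1L1 (chromosome 7, 1855429 to 2272878, minus strand) stood at 15.9 and 15.8 CPM at 4 h against 9.28 and 13.7 CPM at 8 h and did not pass (log2FC −0.48, standard error 0.19, edgeR adjusted p = 0.0523), and its partner MAD2L1 stood at 15.9 and 11.7 CPM at 4 h against 9.92 and 9.72 CPM at 8 h, with a log2FC of −0.49 (adjusted p = 0.0514). Both depended on single libraries. Without replicate 2 of 8 h, MAD1L1 passed at −0.77 (adjusted p = 0.00251), and without replicate 1 of 8 h it was at −0.21 (adjusted p = 0.452). MAD2L1 passed at −0.69 (adjusted p = 0.0344) without replicate 2 of 4 h, and was at −0.26 (adjusted p = 0.464) without replicate 1 of 4 h. The shugoshins protect cohesin at the centromere, and both fell. SGO2 (chromosome 2, 201374731 to 201448819, plus strand) stood at 22.7 and 16.1 CPM at 4 h against 6.08 and 6.87 CPM at 8 h (log2FC −1.58, standard error 0.21, edgeR adjusted p = 7.27e-06), and SGO1 (chromosome 3, 20202085 to 20227698, minus strand) at 11.05 and 12.7 CPM at 4 h against 6.51 and 5.83 CPM at 8 h (log2FC −0.94, standard error 0.20, edgeR adjusted p = 0.00126).

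**Figure D3:**
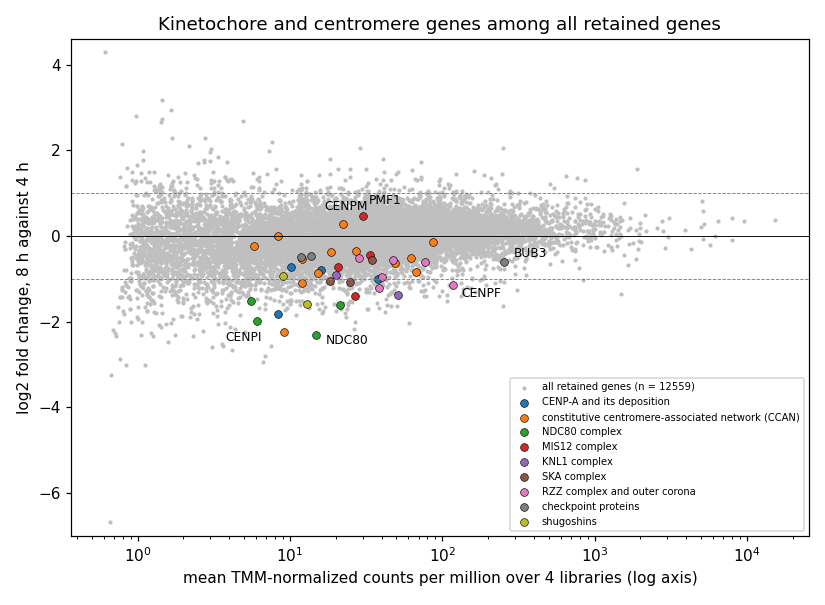
Log2 fold change, 8 h against 4 h (vertical axis), against the mean TMM-normalized CPM over the 4 libraries (horizontal log axis), for all 12559 retained genes (grey) and for the 41 members (coloured by role). The members lie mostly below 0 across a wide range of levels, with NDC80 and CENPI lowest and PMF1 and CENPM above 0.

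Of 13 such ratios, 12 set the lowest over the highest log2FC in a role group or CCAN assembly, which fixes their direction, and 1 is NDC80 over NUF2. In 10 of the 13 both 8 h values lay below both 4 h values, and in 3 the times overlap. The overlapping ones are NDC80 over SPC24, BUB3 over MAD1L1 (19.9 and 18.9 at 4 h against 23.2 and 13.9 at 8 h) and CENPT over CENPW (2.20 and 1.72 at 4 h against 1.45 and 1.81 at 8 h).

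Members at all levels of expression were among those that fell. Across the 41 members, the Spearman correlation of the log2FC with the mean log2 CPM was 0.05 at 4 h and 0.20 over all 4 libraries, and with the canonical transcript length −0.03, given as descriptions since the points share the same libraries. Over all retained genes the correlations with the level were 0.14 and 0.24. The 23 members that overlap no other listed gene had a median log2FC of −0.92, with 18 lower at the adjusted p and 10 of them past the fold threshold. The 18 that overlap a listed gene had a median of −0.69, with 14 lower, 5 past the fold threshold and 1, PMF1, higher. The deposited counts do not say whether the strand was used, so reads of overlapping genes on opposite strands may be mixed.

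A list of 30 other genes, set by a role at the kinetochore or by a CENP name, moved in both directions. Of these, 15 fell, 4 rose and 11 did not pass, beside 18.8% lower and 19.9% higher of all retained genes. The rises were thus no more frequent than among all retained genes. The median log2FC of the list was −0.40, and 5 of the 30 were lower past the fold threshold, beside 3.88% of all retained genes. CPAP, listed under its older name CENPJ, was among the falls and just short of that threshold (log2FC −0.999, edgeR adjusted p = 0.000142). The kinases of the checkpoint were among the falls, with BUB1B (40.2 and 45.8 CPM at 4 h against 9.60 and 9.46 CPM at 8 h, log2FC −2.17, standard error 0.14, edgeR adjusted p = 2.1e-09), BUB1 at −1.37 (adjusted p = 1.63e-08) and TTK at −1.14 (adjusted p = 0.000706). PLK1, a mitotic kinase that acts on kinetochores, had a log2FC of −1.63 (adjusted p = 2.38e-09), and BUB1B, PLK1 and BUB1 were the 3 largest changes of the list. The chromosomal passenger complex also fell, with BIRC5 at −0.92 (adjusted p = 3.64e-07), INCENP at −0.64 (adjusted p = 0.00372), AURKB at −0.60 (adjusted p = 0.000173) and CDCA8 at −0.51 (adjusted p = 0.00245), none of them past the fold threshold. The 4 genes that rose were RSF1 at 0.69 (adjusted p = 1.71e-05), NDEL1 at 0.57 (adjusted p = 3.77e-05), CLASP1 at 0.53 (adjusted p = 0.000531) and BOD1 at 0.28 (adjusted p = 0.0151). CENPB, which binds centromeric satellite DNA, stood at 173 and 178 CPM at 4 h against 155 and 189 CPM at 8 h, with a log2FC of −0.03 (adjusted p = 0.79).

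Several members begin close to the start of a gene on the opposite strand, most of them back to back with it. On GRCh37, among the pairs reported here, 15 members had a gene starting on the opposite strand within 1 kb of their canonical start, and in 14 of these pairs both genes were retained. The neighbours were chosen by position alone. Their median log2FC was −0.18, against −0.68 for the 14 members, and the member had the lower log2FC in 13 of the 14 pairs. Of the 41 members, 39 lay below the median log2FC of all retained genes. Most pairs would thus go this way with almost any neighbour, and the count says nothing of the shared position. Of the 14 neighbours, 3 fell, 3 rose and 8 did not pass. These counts are near the shares of all retained genes, 18.8% lower and 19.9% higher by the same rule. With an absolute log2FC above 1 as well, 2 of the 14 passed, METTL4 and NUSAP1, both lower. The share of all retained genes lower by that rule was 3.88%. KNTC1 (−1.22) and its neighbour RSRC2 at 0.58 (adjusted p = 2.8e-05) moved in opposite directions, as did CENPT (−0.64) and NUTF2 at 0.24 (adjusted p = 0.044). SKA3 fell (−1.04) beside MRPL57 at −0.17 (adjusted p = 0.374), and CENPO (−0.84) beside PTRHD1 at 0.14 (adjusted p = 0.443). In other pairs both genes fell, with NDC80 (−2.31) beside METTL4 at −1.04 (adjusted p = 0.00019) and OIP5 (−1.81) beside NUSAP1 at −1.40 (adjusted p = 2.43e-09), a gene of spindle assembly. SKA2 (−0.57) and its neighbour PRR11 at −0.36 (adjusted p = 0.00282) also both fell. CENPP with NOL8 was the pair in which the neighbour was lower. Whether the members of a pair differ was not tested, and some of these pairs overlap on opposite strands. NUTF2 starts inside CENPT, so that pair is not back to back.

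**Figure D4:**
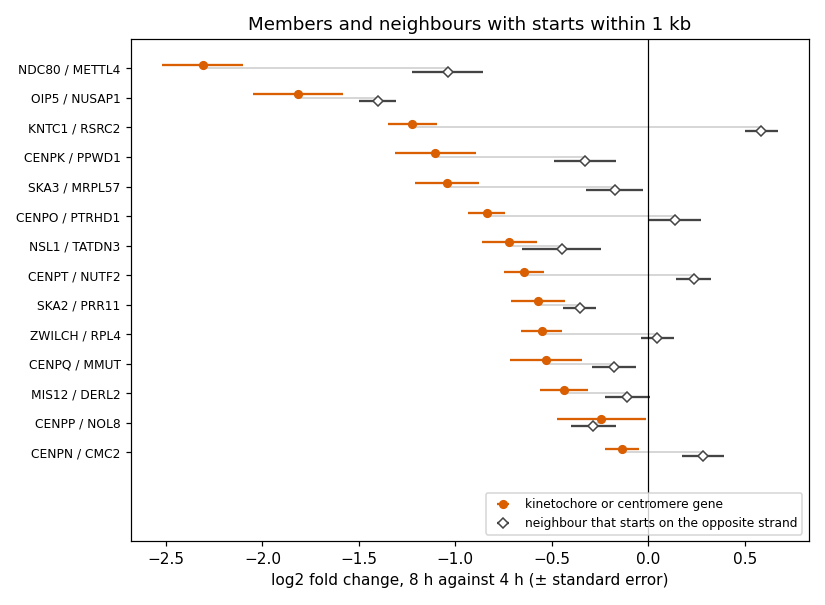
Log2 fold change, 8 h against 4 h (horizontal axis, bars are standard errors), of 14 members (filled circles) and of the gene that starts on the opposite strand within 1 kb (open diamonds), 1 pair per row. The circle lies left of the diamond in 13 of the 14 pairs, and CENPP is the exception.

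The promoter windows, from 250 bases before to 50 bases after the RefSeq start, were searched for the strings given above, none of which contains another. Variants of these strings, such as TTCGAA in the window of OIP5, were not searched, so members without a CHR lack only the letters given. A CHR was found in 15 of the 34 members with a window (44.1%), against 15.1% of the 27305 genes with a window and 8.97% of the 10183 retained genes with a window. In 12 members (35.3%) it lay within 50 bases of the start, against 2.65% of the retained genes. A CCAAT box was found in 22 members (64.7%), against 36.9% of the retained genes, and an E2F site in 4 (11.8%), against 5.66%. The median log2FC was −1.01 in the 15 members with a CHR and −0.64 in the 19 without it, and 8 and 6 of them were past the fold threshold. With a CCAAT box the order was turned, with a median of −0.59 in the 22 members and −1.01 in the 12 without it. CENPC, CENPN and MAD2L1, which did not pass, hold a CHR and at least 1 CCAAT box, and SPC24, DSN1 and OIP5, which fell past the fold threshold, hold no CHR of these letters. The RefSeq start of CENPI lies 2854 bases past the canonical start, so the lack of these strings in its window says nothing of its main promoter. Without CENPI, the median was −0.61 in the 18 members with no CHR, 5 of them past the fold threshold, and −0.97 in the 11 with no CCAAT box. For the other 33 members the RefSeq and the canonical start were the same base.

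Levels are compared between genes per kilobase of canonical transcript, a length that includes untranslated ends and may differ from the annotation used for counting. At 4 h, the highest were ZWINT (38.3 and 41.8 at 4 h against 15.7 and 15.1 at 8 h CPM per kb), BUB3 (41.2 and 38.7 at 4 h against 28.0 and 24.8 at 8 h), CENPW (34.6 and 41.6 at 4 h against 33.6 and 25.3 at 8 h) and SPDL1 (38.2 and 35.2 at 4 h against 24.04 and 23.98 at 8 h). The 4 h values of ZWINT, BUB3 and CENPW overlap, as do those of CENPW and SPDL1, so that no order can be read between these neighbours. At 8 h, PMF1 (22.2 and 25.3 at 4 h against 34.0 and 31.7 at 8 h), CENPW, BUB3, CENPM (22.3 and 20.6 at 4 h against 26.4 and 25.6 at 8 h) and SPDL1 led, while ZWINT was below each of them. The lowest at 4 h were CENPP (0.756 and 0.764 at 4 h against 0.656 and 0.625 at 8 h), CENPC (1.29 and 1.19 at 4 h against 1.33 and 1.12 at 8 h) and NSL1 (1.95 and 1.95 at 4 h against 1.17 and 1.196 at 8 h), and at 8 h CENPI (2.77 and 2.62 at 4 h against 0.535 and 0.603 at 8 h) was below CENPP.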

How the data were processed

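RNA-Seq was made from 4 libraries of serum-starved RPE-1 cells, 2 per time of exposure to merbarone, with times and replicate numbers taken from the labels. Per the submitters' processing notes and the study's methods, Bowtie 1.2.0 placed reads on hg19, reads with a single position were retained, and the authors deposited raw counts per NCBI gene, without normalization. The annotation, the counter and the use of strand are not given in the sources used here. Unspliced mapping loses reads across junctions, so genes of many short exons have lower counts, in every library alike.

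Genes past the filter (CPM above 1, 2 or more libraries) were tested with edgeR 4.0.16 (R 4.3.3, TMM, quasi-likelihood, time as the only term), and p-values were adjusted over all 12559 genes. The standard error is the log2FC divided by the square root of F. The biological coefficient of variation was 6.52%. With 2 libraries per time an exact permutation test could not pass 0.05, and the p-values lean on the spread pooled over genes and measure only the spread between these libraries. Alternatives were limma-voom (limma 3.58.1), which the study used, DESeq2 1.42.0, other scalings and filters, a replicate block, a correction for the trend with level (loess, span 0.7), glmTreat, and leaving out each library with the lone library assumed to vary like the rest. The scripts were tested on simulated data. The replicates were not copies of a library (chi-square per degree of freedom 2.67 at 4 h and 3.84 at 8 h).

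Symbols came from the RefSeq table of GRCh38.p14 (23308 of 23459 genes), positions and canonical lengths from GENCODE on GRCh37. Where a gene had several RefSeq promoter windows, the window nearest the canonical start was taken, found by its sequence. A window was found this way for all 34 members, for 9888 of the 10183 retained genes and for 15678 of the 27305 genes. For the rest the first listed window was taken, so the share over the 27305 genes rests in large part on windows not chosen by position. The members, the role groups, the list of other kinetochore genes, the marker lists, the motifs and the tests were chosen with earlier results of these data known, and the neighbours and ratios were added after the values were seen. A neighbour pair is not reported here, and it is in none of the counts of pairs. Full statistics were given, in each role group, to the members with the largest and the smallest absolute log2FC, to any that moved against the group's median, and to those with the largest and smallest standard errors. In the list of other genes, the 3 largest changes, the checkpoint kinases and the passenger complex were named. The genes that rose, CENPB, CPAP and those placed beside their complexes were named after their values were seen.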

Additional observations from a re-analysis of the deposited data

How the results depend on the processing

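Of the 41 members, 30 had the same direction and the same side of the adjusted p of 0.05 under all 13 alternatives that give a log2FC. Among the 13, edgeR's own filter (filterByExpr) gave the same counts and member values as the main test, so it is not a separate check. CENPC, which did not pass in any of them, changed sign, to 0.14 with the correction for the trend with level, 0.04 without replicate 1 of 4 h and 0.10 without replicate 2 of 8 h (−0.15 to 0.10 leaving out each library), and the cause was not tested. CENPQ also missed the threshold in DESeq2 (adjusted p = 0.126) and with the trend correction (0.0973). The members' median log2FC ran from −0.91 with library size alone, which moved the median of all genes to −0.11, to −0.73 with the trend correction. With library size alone 18 members were lower past the fold threshold, against 641 lower and 125 higher of all genes (487 and 182 with TMM), and with the trend correction 12, against 339 and 261. Library size alone put 8 of the other kinetochore genes past it, against 5. With glmTreat, a stricter question by construction, 5 members, 3 other kinetochore genes, and 58 lower and 26 higher of all genes passed. DESeq2 called 1503 of all genes lower at the adjusted p alone, against 2367. Leaving out each library gave 12 to 19 members lower past the fold threshold, 28 to 34 lower and 0 to 1 higher at the adjusted p alone, and 1509 to 2294 lower and 1605 to 2534 higher of all genes. The times share replicate numbers, but the deviations of same-numbered libraries correlated at 0.06 over all retained genes and 0.11 over 9396 genes with a mean count of at least 100, and with 2 libraries per time and no shared batch in the labels the numbers are not taken as pairs. With the replicate block, 36 members were lower at the adjusted p and 15 past the fold threshold, and CENPH, CENPW, MAD1L1 and MAD2L1 passed (adjusted p = 0.038, 0.0168, 0.0193 and 0.0259). Depth limits SPC24, SPC25, CENPP and CENPC most, with under 100 reads in most libraries.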
